A study of Mus musculus with 17 samples.

Results

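The 92 genes described here are those whose transcripts were most abundant in mouse embryonic stem cells kept in LIM, a medium with a MEK inhibitor and a blocker of Wnt secretion. They were chosen from the data. A protein-coding gene was taken when it had at least 3 CPM (its count over the summed gene counts of the library, times 1000000) in LIM in both cell lines, and when its CPM + 0.5 in LIM was, in each line, at least 2 times that in every other medium. Of 21697 protein-coding genes counted, 92 (0.424%) met the rule, or 0.848% of the 10847 that met the level condition. LIM against the other media is therefore the contrast that chose the genes, and its values are given below as a description, with no test. The same rule gave 478 genes for LFAI at 4 d, 35 for LFAI at 35 h and 273 for L2i.

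Polyadenylated RNA was sequenced from wild-type stem cells of the lines R1 and CGR8, grown with LIF, the cytokine that sustains self-renewal, in serum-free N2B27 medium. LIM held 0.1 uM PD325901, which inhibits MEK, and 2 uM IWP2, which prevents Wnt ligands from being secreted, and these cells had 4 (R1) or 6 (CGR8) passages in it after 5 passages in L2i. LFAI held 12 ng/ml FGF2, 20 ng/ml human Activin A and 2 uM IWP2, and was sampled at 4 d (after 3 and 9 passages in L2i) and at 35 h (after 9 and 7). L2i held 3 uM CHIR99021, an inhibitor of GSK3 that activates Wnt signalling, with 0.1 uM PD325901, for 10 (R1) and 8 (CGR8) passages. Each of these 4 groups had 1 library of R1 and 1 of CGR8 (n = 2), on gelatin with basement membrane extract. A separate time course of R1 cells, on gelatin with fetal calf serum and with another sequencing protocol, had 1 library each for day 0 (L2i) and for days 1, 2, 3 and 4 in LIM or LFAI. The time in a medium and the medium cannot be told apart in the set with both lines, since LIM was held for passages and LFAI for hours or days.

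As background, the epiblast passes from a naive state, before implantation, through a rosette, in which the cells polarise around a common point and a lumen opens, to a primed state that is ready to form the germ layers. MEK and ERK signalling downstream of FGF and the canonical Wnt pathway both bear on these steps, and LIM was designed to hold cells between the naive and the primed state. Activin A and FGF2, without a MEK inhibitor, carry cells to the primed state.

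Summed gene counts were 15.1 to 22.6 M per library in the set with both lines and 12.9 to 13.7 M in the time course. Pluripotency markers (Pou5f1, Sox2, Utf1, Lin28a) summed to 2464 and 2507 CPM in LIM, in R1 and CGR8. Naive markers (Klf4, Tfcp2l1, Nanog, Esrrb) summed to 767 and 1050 CPM in LIM, to 46.1 and 50.4 in LFAI at 4 d, to 636 and 1251 at 35 h and to 3228 and 3549 in L2i. Markers of the epiblast after implantation and of the rosette (Otx2, Podxl, Dnmt3b, Fgf5, Pou3f1) summed to 1255 and 1622 CPM in LIM, to 2727 and 2801 in LFAI at 4 d, to 1743 and 994 at 35 h and to 132 and 128 in L2i. Among markers of other cell types, the neural ones gave Nes at 129 and 99.6 CPM in LIM, 592 and 366 in LFAI at 4 d, 40.3 and 35.9 at 35 h and 41.6 and 28.2 in L2i, and Tubb3 at 189 and 178 CPM in LIM, 130 and 57.4 in LFAI at 4 d, 109 and 89.3 at 35 h and 229 and 125 in L2i. Sox1 had 8.30 and 3.43 CPM in LIM, 0.451 and 0.392 in LFAI at 4 d, 3.09 and 3.05 at 35 h and 0.708 and 0.925 in L2i, Neurog2 was under 1 CPM in all 8 libraries, and Pax6 is one of the 92 genes. The 5 muscle markers summed to 23.7 and 32.8 CPM in LIM and 16.4 and 14.2 in LFAI at 4 d. They summed to 13.8 and 9.75 at 35 h and 6.73 and 4.96 in L2i. Fibroblast markers summed to 19.6 and 30.5 CPM in LIM, 44.5 and 36.7 in LFAI at 4 d and 3.94 and 3.90 in L2i. Trophoblast markers summed to 59.5 and 56.4 CPM in LIM, 4.64 and 2.88 in LFAI at 4 d and 108 and 107 in L2i. Mesoderm and streak markers summed to 14.1 and 11.2, 16.9 and 7.91, and 8.06 and 12.2 CPM in the same media. Endothelium and blood markers summed to 64.8 and 102, 2.77 and 2.35, and 153 and 128 CPM. Gata6, Sox17 and Sox7 of primitive endoderm were under 1 CPM in LIM, while Gata4, which is also one of the 92, had 7.10 and 5.21. Of the same list, Dab2 had 7.29 and 4.05 CPM in LIM and 5.93 and 3.73 in LFAI at 4 d. Pdgfra had 2.22 and 2.76 CPM in LIM and 0.885 and 1.59 in L2i. The summed level of primitive endoderm markers was 17.5 and 13.4 CPM in LIM, 8.19 and 4.58 in LFAI at 4 d, 2.59 and 4.22 at 35 h and 4.03 and 4.03 in L2i, and the part of these marker lists in the results was not tested.

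In the time course, the library labelled LFAI day 1 was nearer to LIM days 1 and 2 than to LFAI day 2. The reason was not tested. Of 10847 genes, 15 (0.138%) differed by 2 times or more on CPM + 0.5 between it and LIM day 1, and 24 (0.221%) between it and LIM day 2. Between it and LFAI day 2 the number was 1226 (11.3%), against 58 (0.535%) between LIM days 1 and 2. Dusp6, an ERK-induced phosphatase that dampens ERK, stood at 4.80 CPM on day 0 and at 9.22, 77.4, 114 and 107 CPM in the libraries labelled LFAI day 1 to 4, where LIM days 1 to 4 had 9.70, 11.6, 11.1 and 14.4. Spry4, another feedback inhibitor of this pathway, had 1.33 CPM on day 0, 2.85, 84.8, 50.7 and 30.3 CPM in the libraries labelled LFAI and 2.17, 3.61, 4.15 and 4.53 in LIM. In the other set, LFAI at 35 h had 50.03 and 58.1 CPM of Dusp6, against 3.89 and 5.42 in L2i. Results on LFAI in the time course are therefore given from day 2 on, and values of the library labelled LFAI day 1 stand apart. These genes were named after their values were seen.

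The promoters of 4 of the 6 genes with the highest ratio of LIM to the other media are shown. All 4 encode transcription factors and had at most 4.29 CPM in every other medium. They are Lmx1b, a LIM-homeodomain factor of the limb and midbrain whose class name is unrelated to the medium (GRCm38 chr2:33560965-33640511, minus strand), Hesx1, a homeodomain repressor of the forebrain and pituitary (chr14:26994416-27002329, plus strand), Six3, a homeodomain factor of the forebrain and eye (chr17:85613608-85629302, plus strand), and Foxd4, a forkhead factor (chr19:24899236-24901197, minus strand). The windows, from RefSeq on GRCm38.p6, run 5′ to 3′ on the gene's strand from 250 bases before to 50 after the annotated start. They lie at chr2:33641049-33641348, chr14:27000112-27000411, chr17:85620584-85620883 and chr19:24900967-24901266. For all 4 genes this RefSeq start differs from the start of the GENCODE span given above, and the Lmx1b window lies outside its span. CpG dinucleotides, the sites of DNA methylation, are in capitals:
Lmx1b: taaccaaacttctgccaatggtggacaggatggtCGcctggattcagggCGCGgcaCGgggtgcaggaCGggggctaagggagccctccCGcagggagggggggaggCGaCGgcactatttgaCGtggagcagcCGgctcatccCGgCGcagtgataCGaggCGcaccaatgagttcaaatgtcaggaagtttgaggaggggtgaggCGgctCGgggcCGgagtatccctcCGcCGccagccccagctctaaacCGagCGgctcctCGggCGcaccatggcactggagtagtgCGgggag
Hesx1: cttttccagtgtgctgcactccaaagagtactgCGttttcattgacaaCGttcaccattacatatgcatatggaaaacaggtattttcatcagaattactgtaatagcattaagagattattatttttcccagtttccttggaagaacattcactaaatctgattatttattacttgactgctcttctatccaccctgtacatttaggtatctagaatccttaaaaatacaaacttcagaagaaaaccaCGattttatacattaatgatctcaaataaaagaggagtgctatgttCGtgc
Six3: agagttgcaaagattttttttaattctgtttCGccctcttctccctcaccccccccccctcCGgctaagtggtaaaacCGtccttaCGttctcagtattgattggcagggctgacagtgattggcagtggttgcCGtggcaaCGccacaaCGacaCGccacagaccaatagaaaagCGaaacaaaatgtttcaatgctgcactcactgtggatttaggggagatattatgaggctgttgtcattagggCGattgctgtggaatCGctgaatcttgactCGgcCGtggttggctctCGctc
Foxd4: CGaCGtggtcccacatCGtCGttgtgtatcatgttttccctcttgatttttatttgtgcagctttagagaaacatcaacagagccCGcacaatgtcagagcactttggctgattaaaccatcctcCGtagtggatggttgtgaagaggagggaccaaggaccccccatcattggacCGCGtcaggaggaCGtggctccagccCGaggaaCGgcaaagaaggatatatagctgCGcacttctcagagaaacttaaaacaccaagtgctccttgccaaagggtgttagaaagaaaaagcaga

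The windows differed widely in composition. That of Lmx1b held 24 CpG at 65.7% G+C, Six3 14 at 50%, Foxd4 12 at 49.0% and Hesx1 4 at 33.7%. Of the 92 genes, 67 had an entry in the promoter table, with 95 windows in all. Their median was 16 CpG a window, against 21 for the 11155 windows of genes at the level condition and 7 for all 32851 windows, and their median G+C content was 62.3%, against 61.3% and 52.7%. An ETS motif (CCGGAAG, either strand) stood in 3.16% of the windows of LIM-specific genes, in 18.7% of those of genes at the level condition and in 8.86% of all. The GC box (GGGCGG) stood in 52.6%, 65.4% and 35.7%, the TATA box (TATAAA) in 12.6%, 6.47% and 13.6%, and the TEAD motif (GGAATG) in 16.8%, 11.9% and 14.7%. The STAT motif (TTCNNNGAA) was in 6.32%, 6.45% and 8.30%, the TCF/LEF motif (CTTTGA) in 14.7%, 11.2% and 16.0%, the OTX motif (TAATCC) in 7.37%, 5.30% and 7.06%, and the E-box CACCTG in 12.6%, 17.6% and 20.2%. Both strands were searched and motifs were counted independently of each other. These shares describe letters in a window, not binding.

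Among the 92 genes the smaller ratio of LIM to the highest other medium, over both lines, had a median of 2.79. It was at least 3 in 41 genes, at least 5 in 14 and at least 10 in 6. Just inside the rule were Cyp2s1 (2.01), Sgms2 (2.02) and Palm3 (2.03), and just outside by fold were Sh3pxd2b (1.93) and Stk10 (1.92), so the group has no sharp edge. Most of its genes gave few reads, with a median of 11.8 CPM in LIM against 40.6 CPM over the genes at the level condition, and 38 of them had a mean under 10 CPM. Together they took 4377 and 3536 CPM in LIM, 1048 and 961 in LFAI at 4 d, 857 and 932 at 35 h and 597 and 617 in L2i. In such bulk samples, more cells of a type and more RNA per cell cannot be told apart. The medium next to LIM was LFAI at 4 d in both lines for 33 genes, LFAI at 35 h for 16 and L2i for 15.

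Transcription factors of development were 4 of the 6 genes with the highest ratios. Lmx1b had 80.2 CPM in R1 and 47.3 CPM in CGR8 in LIM, 0.967 and 0.719 in LFAI at 4 d, 0.126 and 0 at 35 h and 4.29 and 2.78 in L2i. Hesx1 had 41.3 and 35.1 CPM in LIM, 0.129 and 0 in LFAI at 4 d, 0.126 and 0.130 at 35 h and 2.48 and 0.925 in L2i. Six3 had 6.97 and 6.19 CPM in LIM, 0 in all 4 LFAI libraries and 0.177 and 0.132 in L2i. Every LIM library lay above every other library for these genes, as the rule requires within each line.

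Foxd4 had 5.96 and 8.10 CPM in LIM, and between 0 and 0.131 in the other 6 libraries. Zeb2, a zinc-finger repressor of E-cadherin, had 19.6 and 8.16 CPM in LIM, 0.387 and 0.458 in LFAI at 4 d, 0.505 and 0.130 at 35 h and 0.310 and 0.198 in L2i. Pax6, a paired-box factor of the eye and forebrain, had 58.4 and 26.7 CPM in LIM, 1.55 and 0.588 in LFAI at 4 d, 5.49 and 3.96 at 35 h and 4.82 and 3.96 in L2i. Of 13 anterior neural and ectoderm factors at the level condition, 4 were LIM-specific (30.8%, beside 0.848% of all genes at that level): Hesx1, Six3, Pax6 and Irx3, a further homeodomain factor. This list and the others used below were drawn up with earlier results of these data known. Their shares are therefore a description and no test of enrichment. A list of other homeobox genes had 14 at that level. It was not complete, since Lmx1b was not on it. Of the 14, 3 were LIM-specific, and Irx3 and Six3 are counted in both lists. The third was Pou4f2, a POU-domain factor of retinal ganglion cells, with 12.2 and 9.26 CPM in LIM, 0.193 and 0.131 in LFAI at 4 d, 2.40 and 3.31 at 35 h and 0.177 and 0 in L2i. None of 16 early epiblast factors and enzymes at the level condition was LIM-specific.

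Growth factors and imprinted genes were the next group. Igf2, a paternally expressed growth factor, had 159 and 48.8 CPM in LIM, 8.51 and 3.46 in LFAI at 4 d, 0.315 and 0.260 at 35 h and 1.64 and 0.0661 in L2i. Peg10, a retrotransposon-derived imprinted gene needed in the placenta, had 499 and 206 CPM in LIM, 74.1 and 16.3 in LFAI at 4 d, 40.9 and 33.7 at 35 h and 54.0 and 37.3 in L2i. Peg3, an imprinted zinc-finger gene, had 470 and 271 CPM in LIM, 79.2 and 77.3 in LFAI at 4 d, 147 and 112 at 35 h and 73.6 and 92.8 in L2i. These are 3 of 15 imprinted genes listed at the level condition (20%), and all were higher in R1 than in CGR8 in LIM. Kitl, the ligand of the receptor Kit, had 64.3 and 19.1 CPM in LIM, 2.26 and 0.850 in LFAI at 4 d, 5.11 and 2.14 at 35 h and 1.99 and 2.44 in L2i. Coch, which encodes the secreted protein cochlin, had 20.9 and 22.1 CPM in LIM, 3.35 and 2.88 in LFAI at 4 d, 0.442 and 1.04 at 35 h and 1.15 and 0.925 in L2i.

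The lines differed within LIM. Of the 92 genes, 15 (16.3%) were at least 2 times higher in R1 than in CGR8 in LIM, against 1.14% of genes at the level condition, and 1 (1.09%) was at least 2 times higher in CGR8, against 1.85%. Greb1l, a gene needed for kidney development, had the highest ratio of all and was among the 15, with 179 CPM in R1 and 76.1 CPM in CGR8 in LIM, 3.67 and 0.654 in LFAI at 4 d, 0.189 and 0.130 at 35 h and 3.76 and 3.90 in L2i. Line, passage number (30 in R1, 34 in CGR8) and passages in LIM cannot be told apart here.

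**Figure D1:**
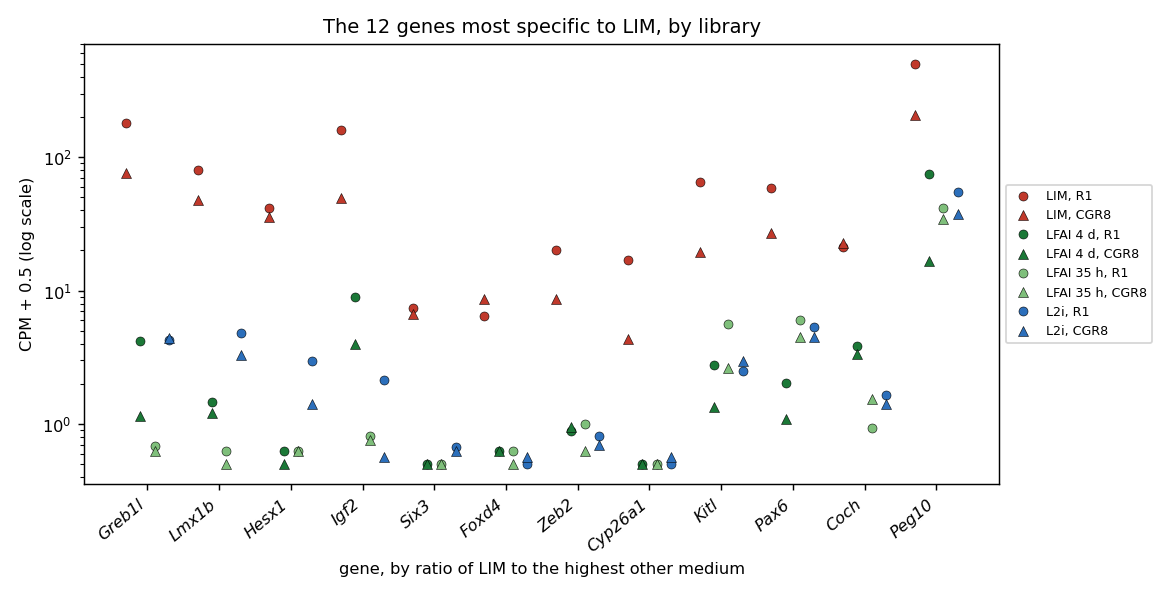
CPM + 0.5 on a log scale for the 12 genes with the highest ratio of LIM to the other media, in each of the 8 libraries (circles R1, triangles CGR8; LIM, LFAI 4 d, LFAI 35 h and L2i from left to right). The LIM points lie above all others, as the rule requires, and Cyp26a1, Kitl and Igf2 show the widest gaps between the lines in LIM among these 12.

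Retinoid genes included both sides of the pathway. Cyp26a1, which degrades retinoic acid, had 16.5 CPM in R1 and 3.86 CPM in CGR8 in LIM, was listed at 0 in all 4 LFAI libraries and had 0 and 0.0661 in L2i. Crabp2, which carries retinoic acid in the cell, had 95.2 and 98.7 CPM in LIM, 36.5 and 44.4 in LFAI at 4 d, 36.5 and 37.2 at 35 h and 2.57 and 1.92 in L2i. They are 2 of 9 retinoid genes at the level condition.

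Receptors and ligands of signalling pathways followed. Fgfr2, an FGF receptor, had 141 and 99.8 CPM in LIM, 30.6 and 22.8 in LFAI at 4 d, 15.9 and 10.3 at 35 h and 15.9 and 17.4 in L2i. Fgfr3, its paralogue, had 6.59 and 3.74 CPM in LIM and at most 1.68 CPM in the other libraries. Fgfr2 and Fgfr3 were 2 of 37 FGF and ERK genes at the level condition, and no ERK feedback target was LIM-specific. Ror1, a receptor for Wnt5a, had 70.2 and 40.6 CPM in LIM, 8.51 and 8.497 in LFAI at 4 d, 5.43 and 5.78 at 35 h and 3.45 and 3.96 in L2i. Its ligand gene Wnt5a had 12.4 and 6.69 CPM in LIM, 0.387 and 0 in LFAI at 4 d, 2.02 and 2.14 at 35 h and 0 and 0.0661 in L2i. Wnt5a and Ror1 were 2 of 31 Wnt genes at that level. Of 28 TGF-beta and BMP genes, Gdf11, a ligand, and Id1, a BMP-induced inhibitor of helix-loop-helix factors, were LIM-specific. Id1 had 19.7 and 23.2 CPM in LIM, 5.99 and 3.46 in LFAI at 4 d, 4.35 and 6.63 at 35 h and 2.79 and 3.17 in L2i.

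The lists of matrix and of adhesion genes gave 5 of 55 and 5 of 71 genes at the level condition. Genes of these kinds outside the lists were not counted. The matrix genes were the collagen genes Col2a1, Col4a2 and Col5a3, the microfibril gene Fbn2 and Adamts14, a protease that trims procollagen. The adhesion and guidance genes were Cdh2 (N-cadherin), the ephrin receptors Ephb1 and Ephb2, the semaphorin receptor Plxnc1 and the guidance receptor Robo3. Col4a2 had 58.5 and 40.7 CPM in LIM, 24.0 and 15.3 in LFAI at 4 d, 2.33 and 4.48 at 35 h and 5.98 and 3.96 in L2i. Cdh2 had 53.1 and 26.3 CPM in LIM, 18.2 and 9.41 in LFAI at 4 d, 5.30 and 4.03 at 35 h and 7.30 and 5.42 in L2i. For both genes LFAI at 4 d stood next to LIM. Slc2a1, the glucose transporter GLUT1, had 642 and 1067 CPM in LIM, 294 and 437 in LFAI at 4 d, 278 and 387 at 35 h and 150 and 235 in L2i, and was the only one of 25 glycolysis genes at the level condition to meet the rule. Ndrg1, a stress-responsive gene of the NDRG family, had 62.8 and 123 CPM in LIM, 14.9 and 22.03 in LFAI at 4 d, 19.2 and 38.4 at 35 h and 14.96 and 11.96 in L2i. Other lists gave Abca4 and Atp2b2, a transporter and a calcium pump, among 207 transporters, and the claudin Cldn2 among 27 junction and polarity genes. None of 51 ion channels, 30 cytoskeleton genes, 13 LIF and STAT3 targets, 9 germline genes or 4 carbonic anhydrases was LIM-specific.

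The rule capped the values of these genes in each medium other than LIM. Their behaviour between those media was otherwise left free. It was tested by edgeR's quasi-likelihood test over 15525 genes, with Benjamini-Hochberg adjustment over all of them, with calls made below an adjusted p of 0.05. All 92 genes entered the test, but 9 of them passed the filter on low counts through the LIM libraries alone, so that 83 pass without these. At 35 h, 10 of the 92 were higher in LFAI than in L2i (10.9%, beside 7.35% of all genes tested) and 5 were lower (5.43%, beside 7.16%). The 10 became 6 without R1 L2i or without CGR8 LFAI 35 h, and the 5 became 2 without R1 L2i or without either LFAI 35 h library. At 4 d, 23 were higher in LFAI than in L2i (25%, beside 21.5%) and 14 lower (15.2%, beside 23.3%), and the 23 became 15 without CGR8 L2i and 14 without R1 LFAI 4 d. The median log2 fold over the 92 was 0.54 at 4 d and 0.09 at 35 h, against -0.0012 and -0.0011 over all genes tested. The shares higher were thus near those of all genes tested, and the share lower at 4 d was below it. The genes were chosen for low values, relative to LIM, in these same libraries, and most gave few reads. These shares are therefore a description, and how far the choice shapes them was not measured. In all, 49 of the 92 (53.3%, beside 54.1% of all genes tested) were called in at least 1 of the 3 comparisons without LIM and 43 in none. Of the 83, 48 were called in at least 1 (57.8%), and every count of higher or lower genes was the same over the 83 as over the 92 except that 13 were lower at 4 d than in L2i. The median log2 fold to L2i over the 83 was 0.45 at 4 d and 0.11 at 35 h.

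Some LIM-specific genes were also higher in LFAI than in L2i at both times. Crabp2 rose by 4.10 ± 0.21 (log2, SE) at 4 d (edgeR adjusted p = 5.3e-06, higher in 2 of 2 lines) and by 4.00 ± 0.21 at 35 h (edgeR adjusted p = 0.00013), over L2i. Fignl2, a gene related to the AAA ATPase fidgetin, had 10.2 and 7.52 CPM in LFAI at 4 d and 1.45 and 2.34 at 35 h, against 0 and 0.0661 in L2i. On 1 count in L2i, its ratio to L2i was 335 at 4 d (95% counting interval 59.7 to 13298) and 71.2 at 35 h (12.3 to 2861), with edgeR adjusted p = 2.8e-05 and 0.0013. Phldb1, a gene of cortical microtubule anchoring, had 171 and 85.1 CPM in LIM, 72.1 and 28.8 in LFAI at 4 d, 17.9 and 22.5 at 35 h and 6.90 and 3.96 in L2i. It rose over L2i by 3.13 ± 0.51 at 4 d (edgeR adjusted p = 0.0013). At 35 h the difference was 1.86 ± 0.50 (edgeR adjusted p = 0.039), and the adjusted p was 0.087 to 0.147 without any 1 of the 4 libraries compared.

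Matrix genes went both ways in LFAI at 4 d. Col4a2 was higher in LFAI at 4 d than at 35 h by 2.49 ± 0.38 (edgeR adjusted p = 0.0014) and than in L2i by 1.91 ± 0.37 (edgeR adjusted p = 0.0032). Col2a1, the cartilage collagen, had 41.3 and 16.7 CPM in LFAI at 4 d, against 3.23 and 1.72 in L2i, a log2 fold of 3.45 ± 0.57 (edgeR adjusted p = 0.0014). Ephb2 had 16.6 and 19.7 CPM in LFAI at 4 d, 7.00 and 5.33 at 35 h and 7.04 and 6.41 in L2i, and rose by 1.52 ± 0.22 over 35 h and by 1.38 ± 0.22 over L2i (edgeR adjusted p = 0.0012 for each). Adamts14 went the other way, with 0.967 and 0.719 CPM in LFAI at 4 d, 7.44 and 7.99 at 35 h and 7.26 and 6.61 in L2i. Its log2 fold at 4 d was -3.22 ± 0.29 over 35 h and -3.08 ± 0.29 over L2i (edgeR adjusted p = 0.00011 and 8.0e-05). Of the 5 matrix genes, 3 (Col2a1, Col4a2, Fbn2) were called higher in LFAI at 4 d than in L2i and Adamts14 lower, while Col5a3 had 2.19 and 0.392 CPM at 4 d and 3.23 and 0.991 in L2i. The call of Fbn2 (log2 1.37 ± 0.39, edgeR adjusted p = 0.020) was lost without R1 L2i, R1 LFAI 4 d or CGR8 LFAI 4 d, at an adjusted p of 0.104, 0.0744 and 0.0594.

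Of the 4 anterior factors, Hesx1 and Pax6 were called lower in LFAI at 4 d than in L2i. The other two, Six3 and Irx3, entered the test through the LIM libraries alone, and Irx3 had 0.644 and 0.261 CPM at 4 d and 0.133 and 0 in L2i. Lmx1b was also lower. With 2 counts in LFAI at 35 h, it had a ratio to L2i of 0.0174 (95% counting interval 0.00208 to 0.0640; edgeR adjusted p = 0.0017), and at 4 d it was lower than in L2i by a log2 fold of -2.13 ± 0.46 (edgeR adjusted p = 0.0060). Hesx1, with 2 counts in LFAI at 4 d, had a ratio to L2i of 0.0350 (0.00415 to 0.131; edgeR adjusted p = 0.0020). At 35 h its log2 fold was -3.71 ± 0.73 (edgeR adjusted p = 0.011), with an adjusted p of 0.0632 without R1 L2i and 0.0736 and 0.0522 without each LFAI 35 h library. Pax6 was lower at 4 d than in L2i by a log2 fold of -2.09 ± 0.52 (edgeR adjusted p = 0.011), a call lost without R1 L2i or CGR8 LFAI 4 d (0.0521 and 0.0788). Six3 rested on 6 counts in L2i and 0 in LFAI at 4 d, at least 1.63-fold lower over the floor of 3 counts in the group. Its call (edgeR adjusted p = 0.035) was lost with the cell line as a block, at 0.0564, and without any 1 of the 4 libraries compared (0.0587 to 0.101) or either LIM library (0.0733 and 0.0699). Emp1, an epithelial membrane protein gene, had 0.322 and 0.196 CPM in LFAI at 4 d, 5.80 and 6.63 at 35 h and 6.99 and 5.29 in L2i, and fell by 4.58 ± 0.53 at 4 d against L2i (edgeR adjusted p = 0.00022).

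At 35 h, 8 of the 92 genes stood apart from both L2i and LFAI at 4 d in the same direction (8.70%, beside 3.94% of all genes tested). These comparisons share the 35 h libraries. Cldn2, Lrtm2, Pou4f2 and Wnt5a were higher at 35 h than in L2i and lower at 4 d than at 35 h. Lrtm2, a leucine-rich repeat transmembrane gene, had 0.838 and 0.850 CPM at 4 d, 5.61 and 8.71 at 35 h and 1.37 and 1.59 in L2i, with log2 folds of -3.11 ± 0.39 for 4 d over 35 h (edgeR adjusted p = 0.00052) and 2.26 ± 0.37 for 35 h over L2i (edgeR adjusted p = 0.0050). Pou4f2 had log2 folds of -4.11 ± 0.70 and 4.69 ± 0.73 in the same comparisons (edgeR adjusted p = 0.0025 and 0.0041). Cldn2, with 0 counts in L2i, was at least 27.0-fold higher at 35 h over the floor of 3 counts in the group (edgeR adjusted p = 0.0073). Wnt5a had 1 count in L2i and a ratio at 35 h of 78.5 (95% counting interval 13.6 to 3147; edgeR adjusted p = 0.012), with an adjusted p of 0.0903 without R1 L2i. Its fall at 4 d against 35 h was lost without CGR8 LFAI 4 d or CGR8 LFAI 35 h (0.0672 and 0.0503).

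Galnt16, Greb1l, Lmx1b and Cotl1 had the reverse order, lower at 35 h than in L2i and higher at 4 d than at 35 h. Galnt16, a glycosyltransferase gene, had 9.93 and 8.497 CPM at 4 d, 1.14 and 1.43 at 35 h and 9.65 and 5.15 in L2i, with log2 folds of 2.80 ± 0.38 for 4 d over 35 h (edgeR adjusted p = 0.00074) and -2.55 ± 0.38 for 35 h over L2i (edgeR adjusted p = 0.0034). Greb1l had log2 folds of 3.65 ± 1.06 and -4.52 ± 0.98 (edgeR adjusted p = 0.027 and 0.017). Its call against L2i was lost without R1 L2i (0.0669) or either LFAI 35 h library (0.0920 and 0.0759), and that against 35 h without R1 LFAI 4 d (0.222) or either LFAI 35 h library (0.0890 and 0.115). The second call of Lmx1b was lost without R1 LFAI 4 d (0.0616) or CGR8 LFAI 35 h (0.0752). Cotl1, an actin-binding protein gene, was higher at 4 d than at 35 h by 2.00 ± 0.32 (edgeR adjusted p = 0.0016), and its call at 35 h against L2i (edgeR adjusted p = 0.048) was lost without any 1 of R1 L2i, the 4 LFAI libraries and the 2 LIM libraries (0.0655 to 0.323).

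Between LFAI at 4 d and at 35 h, 19 of the 92 were higher (20.7%, beside 17.7% of all genes tested) and 14 lower (15.2%, beside 19%). The 19 became 10 without R1 LFAI 4 d or CGR8 LFAI 35 h and 12 without R1 LFAI 35 h, and the 14 became 9 without CGR8 LFAI 4 d.

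**Figure D2:**
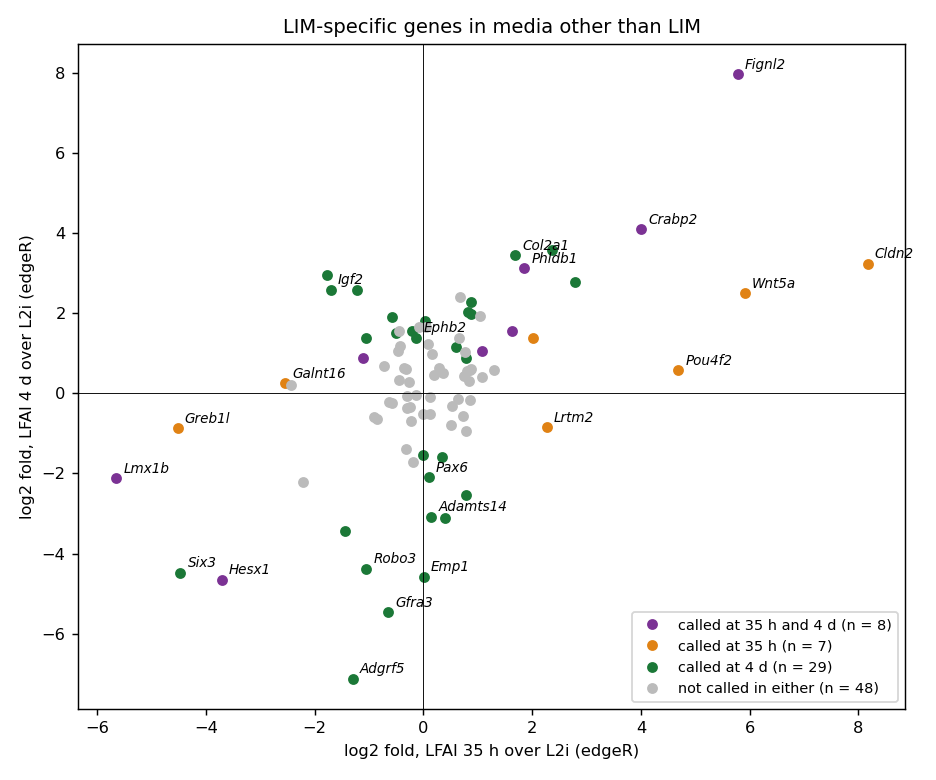
Log2 fold of LFAI at 4 d over L2i (vertical) against that of LFAI at 35 h over L2i (horizontal) for the 92 genes, from the edgeR fit with n = 2 a group. Colours show genes called (adjusted p under 0.05) at both times (8), at 35 h alone (7), at 4 d alone (29) and at neither (48). Both axes share the L2i libraries, and for genes with 3 or fewer counts in a group (such as Cldn2, Fignl2 and Adgrf5) the plotted fold depends on the prior count.

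The time course followed the same genes in R1 cells from the first days in LIM, in libraries that the rule did not use. There is 1 library a point, so no difference has a replicate check, and counts of genes at 2 times or more on CPM + 0.5 are given beside the share of the 10847 genes at the level condition. On LIM days 1, 2, 3 and 4, 23, 32, 34 and 49 of the 92 genes were at least 2 times day 0, against 2.3%, 3.8%, 4.41% and 5.17% of genes at the level condition. The median log2 ratio of the 92 to day 0 was 0.35, 0.39, 0.68 and 1.08 on these days. In LFAI on days 2, 3 and 4, 25, 33 and 45 were at least 2 times day 0 (6.5%, 9.5% and 11%), with medians of 0.23, 0.52 and 0.95. The genes chosen for LIM in passaged cells were thus above day 0 in similar numbers in both media by day 4, and the ratios share the day 0 library. In the library labelled LFAI day 1, 25 were at least 2 times day 0 (2.4%), with a median of 0.26.

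**Figure D3:**
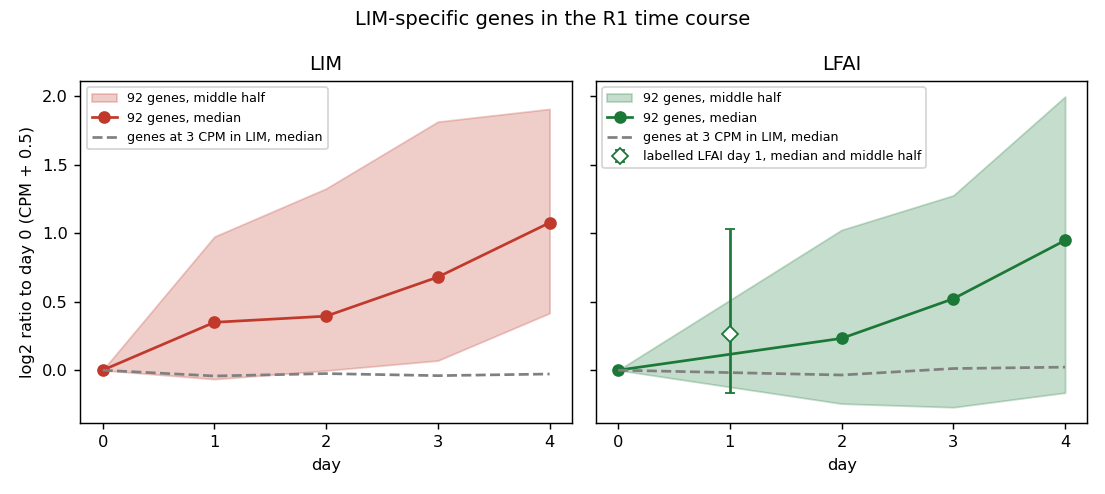
Median (points) and interquartile range (shading) of the log2 ratio of CPM + 0.5 to day 0 over the 92 genes by day in LIM (left) and LFAI (right), with the median of the genes at the level condition as a dashed line. The median reaches 1.08 in LIM and 0.95 in LFAI on day 4, and the library labelled LFAI day 1 is drawn apart as an open diamond with its interquartile range.

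On day 4 the genes divided by the medium in which they were high. In LIM, 25 of the 92 (27.2%, beside 1.4% of genes at the level condition) were at least 2 times both day 0 and LFAI day 4. A further 18 (19.6%, beside 2.42%) were at least 2 times day 0 and within 2 times of LFAI, and 6 (6.52%, beside 1.35%) were at least 2 times day 0 but at least 2 times higher still in LFAI. Of the 43 others, 21 (22.8%, beside 80.0%) were within 2 times of LFAI, 17 (18.5%, beside 7.58%) were at least 2 times higher in LFAI and 5 (5.43%, beside 7.28%) at least 2 times higher in LIM. LIM was at least 2 times LFAI of the same day for 25, 28 and 30 genes on days 2, 3 and 4 (6.35%, 8.54% and 8.68%). The reverse held for 12, 18 and 23 genes (4.19%, 7.95% and 8.92%). Leaving out the library labelled LFAI day 1, 51 genes (55.4%, beside 31.1% of genes at the level condition) had their highest value of the course in LIM, 38 (41.3%, beside 49.5%) in LFAI and 3 (3.26%, beside 19.4%) at day 0.

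The first group included genes that were above day 0 from the first day in LIM and low in LFAI. Lmx1b had 1.18 CPM on day 0, 14.4, 18.3, 30.7 and 32.7 CPM on LIM days 1 to 4, and 0.382, 0.225 and 0.150 CPM on LFAI days 2 to 4. Hesx1 had 0.148 CPM on day 0, 2.79, 5.08, 8.00 and 9.20 CPM in LIM, and 0, 0.0749 and 0.0749 CPM on LFAI days 2 to 4. Lrtm2 had 0.591 CPM on day 0, 12.3, 14.1, 19.1 and 20.6 CPM in LIM, and 0.687, 0.225 and 1.05 CPM on LFAI days 2 to 4. In the library labelled LFAI day 1, Lmx1b, Hesx1 and Lrtm2 had 13.7, 2.34 and 9.88 CPM, close to LIM day 1. On days 2 to 4 each LIM library was above each LFAI library for these genes.

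Kitl had 1.99 CPM on day 0, 6.28, 13.5, 15.1 and 19.2 CPM in LIM, and 3.51, 2.25 and 2.77 CPM on LFAI days 2 to 4. Wnt5a had 0.221 CPM on day 0, 0.543, 1.55, 3.11 and 4.23 CPM in LIM, and 0.992, 0.300 and 0.150 CPM on LFAI days 2 to 4. Greb1l was slower, with 3.47 CPM on day 0, 4.66, 7.66, 13.4 and 25.2 CPM in LIM, and 3.28, 4.27 and 12.1 CPM on LFAI days 2 to 4. Adamts14 had 7.46 CPM on day 0, 14.1, 22.7, 27.8 and 36.5 CPM in LIM, and 9.08, 5.84 and 6.07 CPM on LFAI days 2 to 4. In all, 27 of the 92 (29.3%, beside 5.29% of genes at the level condition) were higher on each LIM day than on the day before.

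Fgfr2, Crabp2 and Pax6 were above day 0 in both media. Fgfr2 had 2.44 CPM on day 0, 18.7, 27.1, 41.5 and 48.9 CPM in LIM, and 7.79, 14.1 and 18.2 CPM on LFAI days 2 to 4. Crabp2 had 2.21 CPM on day 0, 20.1, 21.3, 41.4 and 60.8 CPM in LIM, and 8.40, 20.4 and 23.3 CPM on LFAI days 2 to 4. Pax6 had 1.11 CPM on day 0, 7.29, 10.6, 15.5 and 17.7 CPM in LIM, and 6.11, 7.04 and 9.82 CPM on LFAI days 2 to 4. In the set with both lines Pax6 had the opposite order, with 4.82 CPM in R1 L2i and 1.55 in R1 LFAI at 4 d. Fgfr2 had 15.9 CPM in R1 L2i, so day 0 was low beside R1 L2i for both genes. The difference between the sets was not tested. Of the 23 genes at 2 times day 0 on LIM day 1, 22 (95.7%) were still at 2 times or more on LIM day 4, against 89.2% of the 250 genes at the level condition that passed on LIM day 1. LIM day 4 was at least 2 times LFAI day 4 for 15 of the 23 (65.2%, beside 38.4%) and LIM day 2 at least 2 times LFAI day 2 for 15 (65.2%, beside 34.4%). The first day at 2 times day 0 in LIM was day 1 for 23 genes (25%, beside 2.30% of genes at the level condition), day 2 for 11 (12.0%, beside 1.75%), day 3 for 5 (5.43%, beside 1.20%) and day 4 for 12 (13.0%, beside 0.876%). The other 41 did not reach it by day 4 (44.6%, beside 93.9%).

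**Figure D4:**
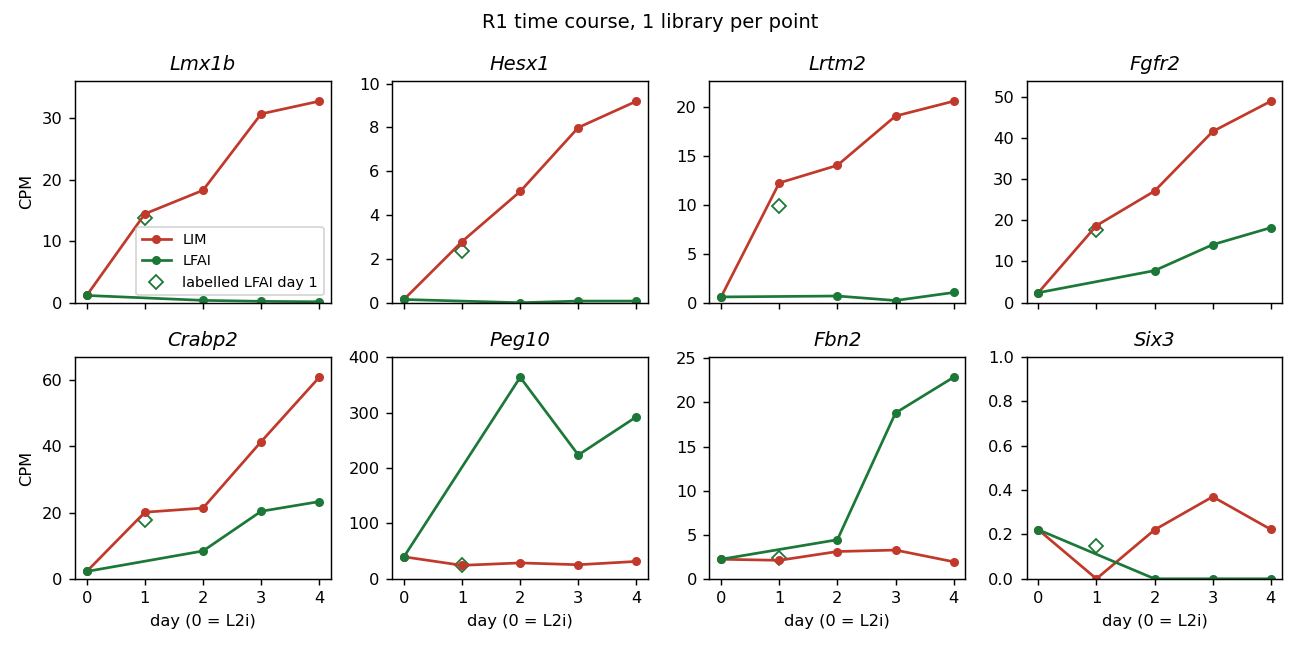
CPM by day for 8 of the LIM-specific genes in R1 cells in LIM (red) and LFAI (green), with 1 library a point, day 0 in L2i and the library labelled LFAI day 1 as an open diamond off the line. Lmx1b, Hesx1 and Lrtm2 are high in LIM and near 0 in LFAI from day 2, Fgfr2 and Crabp2 are above day 0 in both, Peg10 and Fbn2 are higher in LFAI, and Six3 stays under 1 CPM.

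Another set of genes had the opposite order in the first 4 days. Peg10 had 39.7 CPM on day 0, 24.3, 28.7, 25.4 and 31.4 CPM on LIM days 1 to 4, and 364, 224 and 293 CPM on LFAI days 2 to 4, although passaged R1 cells had 499 CPM in LIM against 74.1 CPM in LFAI at 4 d. Id1 had 3.03 CPM on day 0, 1.24, 0.736, 1.11 and 0.519 CPM in LIM, and 5.65, 3.30 and 5.02 CPM on LFAI days 2 to 4. Fbn2 had 2.21 CPM on day 0, 2.09, 3.09, 3.26 and 1.93 CPM in LIM, and 4.43, 18.8 and 22.9 CPM on LFAI days 2 to 4. From day 2 on, each of these genes was higher in LFAI than in LIM on the same day. Pth1r, the parathyroid hormone receptor gene, had 0.443 CPM on day 0, 0.0776, 0.368, 0.592 and 1.04 CPM in LIM, and 0.840, 1.498 and 4.57 CPM on LFAI days 2 to 4. Shisal1 had 0.517 CPM on day 0, 0.155, 0.147, 0 and 0.148 CPM in LIM, and 0.0763, 1.498 and 2.55 CPM on LFAI days 2 to 4, higher in LFAI on days 3 and 4.

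Cdh2 had 4.36 CPM on day 0, 3.26, 3.75, 6.89 and 6.90 CPM in LIM, and 6.34, 12.8 and 21.7 CPM on LFAI days 2 to 4. Kif26a, a kinesin-family gene, had 1.77 CPM on day 0, 1.47, 2.72, 2.67 and 2.30 CPM in LIM, and 4.20, 11.5 and 19.8 CPM on LFAI days 2 to 4. Zeb2 had 0.738 CPM on day 0, 0.853, 0.442, 1.41 and 2.60 CPM in LIM, and 3.36, 5.92 and 9.22 CPM on LFAI days 2 to 4. Col2a1 had 3.47 CPM on day 0, 3.49, 4.49, 6.66 and 8.98 CPM in LIM, and 8.09, 12.7 and 25.03 CPM on LFAI days 2 to 4.

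The last set stayed near 0 through 4 days in LIM, with 8 genes under 1 CPM on every LIM day. The share of genes at the level condition under 1 CPM on every LIM day was not computed. Six3 had 0, 0.221, 0.370 and 0.223 CPM on LIM days 1 to 4, where passaged R1 cells had 6.97. Cyp26a1 had 0.0776, 0.147, 0 and 0.223 CPM, where passaged R1 cells had 16.5. Foxd4 had 0, 0.147, 0.0740 and 0.668 CPM, and its day 4 level was at least 3.01-fold higher than day 0, which had 0 counts, over a floor of 3 counts in that library. Igf2 was not among the 8 and was at least 2 times day 0 from LIM day 1. It had 0.221 CPM on day 0 and 1.16, 1.25, 1.33 and 2.30 CPM in LIM, where passaged R1 cells had 159. Across the 92 genes the median log2 ratio to L2i was 1.08 on day 4 and 2.67 in passaged R1 cells in LIM. The ratio in passaged cells is a value the genes were chosen on and that on day 4 is not, so the choice itself raises the ratio in passaged cells by an amount that was not measured, and the coating and the sequencing protocol also differ between the sets.

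**Figure D5:**
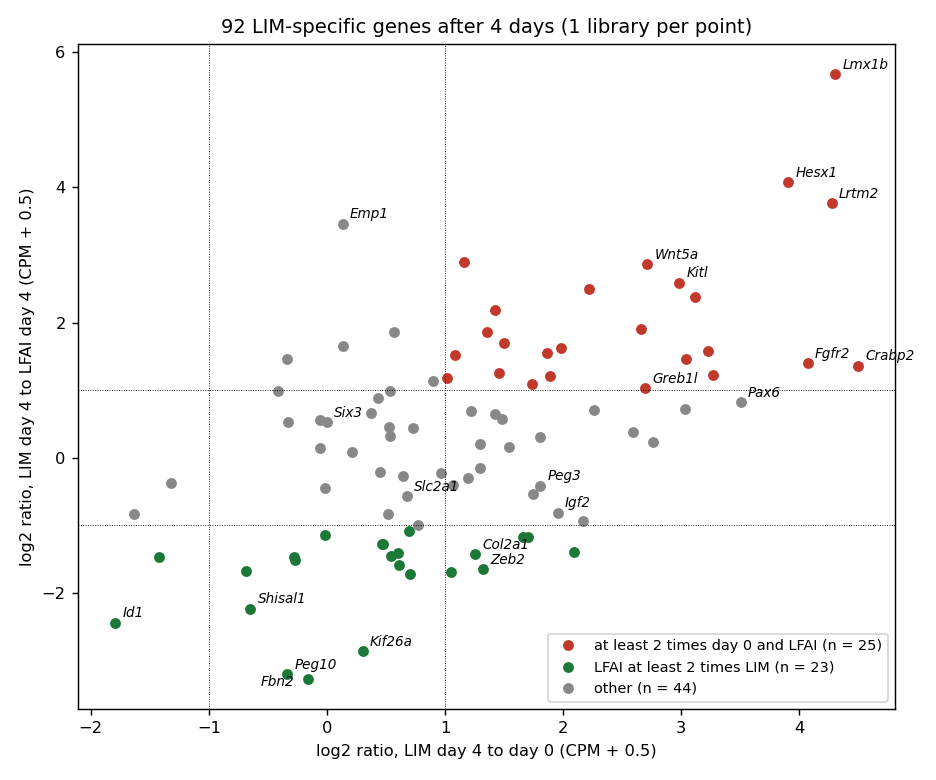
Log2 ratio of LIM day 4 to LFAI day 4 (vertical) against that of LIM day 4 to day 0 (horizontal) on CPM + 0.5 for the 92 genes, with dotted lines at 2 times and the LIM day 4 library shared by both axes. Red points (25) are at least 2 times both day 0 and LFAI, green points (23) are at least 2 times higher in LFAI, and grey points are the other 44.

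The sets also differed for LFAI itself. In R1 cells, 37 of the 92 genes were at least 2 times higher on LFAI day 4 of the time course than in the LFAI 4 d library of the other set, against 9.11% of genes at the level condition, and 3 were at most 0.5 times, with a median log2 ratio of 0.80. Day 0 was at least 2 times R1 L2i for 13 genes (4.57%) and at most 0.5 times for 8. The 8 included Fgfr2 (0.179), Hesx1 (0.217), Pax6 (0.302), Igf2 (0.338) and Lmx1b (0.351). Their ratios to day 0 thus rest on 1 library with low values of these genes. For the counts at most 0.5 times (3 and 8), the share of genes at the level condition was not computed. The rule chose genes with low values in the LFAI libraries of the other set. Peg10 had 293 CPM on LFAI day 4 and 74.1 CPM in the R1 LFAI 4 d library.

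The genes were spread over the genome, and 3 pairs of them lay within 1 megabase of each other. Of the 92, 22 overlap another annotated gene on the same strand and 45 a gene on the opposite strand, so their counts are less certain. Among those named here, Six3, Igf2, Fgfr2, Ror1, Ephb1, Gpc3, Slc2a1, Zeb2, Adgrf5, Plxnc1 and Atp2b2 overlap genes on their own strand.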

How the data were processed

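RNA of 17 libraries was analysed, 8 from the set with both lines and 9 from the time course. The authors deposited raw counts of reads per Ensembl gene; per the submitters' processing notes, reads on GRCm38 were handled with HISAT2 2.0.4, HTSeq 0.6.1 and DESeq2 1.10.1. The stranded kit is stated in the labels, but the strand setting and annotation release of the counting are not given in the sources used here. Each file lists 47729 genes, and its 5 summary entries were dropped. Names and coordinates came from GENCODE M21, which matched 47310 IDs.

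CPM, ratios and counts of genes used Python 3.11.15 with pandas 2.3.3. Tests used edgeR 4.0.16 in R 4.3.3 on all 8 libraries with TMM scaling, filterByExpr, group means and 4 residual degrees of freedom, two-sided, and were tested on simulated data. Alternatives were the Wald test and size factors of DESeq2 1.42.0, no filter on low counts, the line as a block, the fit without LIM and each library left out, and for the rule and the time course other scalings, minimums, folds, pseudocounts and days. Because the block is the same cell line, the numbers pair the samples; the differences between lines correlated between groups at 0.04 to 0.40 over 15525 genes. Nothing says that libraries within a line came from separate cultures, so p-values measure the spread between these samples. Counting intervals are exact at 95% and, like the floors of 3 counts, cover counting error alone.

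The 92 genes and the gene lists were chosen with earlier results of these data known. Named genes are the 12 with the highest ratio, the 8 with the highest CPM in LIM beyond these, up to 4 each way per tested comparison by p, the 6 highest and 6 lowest by the ratio of LIM day 4 to the higher of day 0 and LFAI day 4, members of the lists, and up to 3 on each side of the rule's edge; a gene at that edge and a marker are not reported here. Hsd11b2, Thbs2, Gata4 and the ERK targets were named after their values were seen.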

Additional observations from a re-analysis of the deposited data

Results flagged for a closer look

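For 6 LIM-specific genes the order of LIM and LFAI was opposite in the sets. In R1 and in CGR8 cells passaged in LIM they were at least 2 times higher than in LFAI at 4 d, as the rule requires, while in the R1 time course LIM was at most 0.5 times LFAI on each of days 2, 3 and 4. On day 4 the ratio of LIM to LFAI on CPM + 0.5 was 0.109 for Peg10, 0.185 for Id1, 0.319 for Zeb2, 0.352 for Hsd11b2, 0.444 for Thbs2 and 0.470 for Gpc3. In passaged R1 cells the ratio of LIM to LFAI at 4 d was 6.69, 3.10, 22.7, 2.46, 4.57 and 3.66 for the same genes in the same order. Gpc3, a cell surface heparan sulfate proteoglycan, had 148 CPM in R1 and 139 CPM in CGR8 in LIM and 39.96 and 59.4 CPM in LFAI at 4 d. On LIM days 2 to 4 it had 17.0, 18.1 and 26.4 CPM, against 36.4, 37.5 and 56.7 CPM on LFAI days 2 to 4. The difference between the sets was not tested, since each time point has 1 library and the coating and sequencing protocol differ. The share of genes at the level condition with LIM at most 0.5 times LFAI on all of days 2, 3 and 4 was not computed.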

How the results depend on the processing

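The number of LIM-specific genes was 42 at a minimum of 10 CPM, 185 at 1.5 times, 41 at 3 times, and 212 to 256 with only 1 line. Without a filter on low counts, members higher at 35 h than in L2i were 16 and members lower at 4 d than at 35 h were 22. With 1 library left out, members higher and lower were 6 to 10 and 2 to 5 at 35 h against L2i, 14 to 23 and 10 to 16 at 4 d against L2i, and 10 to 21 and 9 to 16 at 4 d against 35 h. With the cell line as a replicate block they were 12 and 5, 27 and 13, and 24 and 16, none moved by over 1.5 times. Over the 83 members that pass the filter without LIM, chosen after seeing the data, they were 10 and 5, 23 and 13, and 19 and 14. With the block, of 66 called values of named genes 1 ended, Six3 at 4 d against L2i (log2 -4.46, adjusted p = 0.0564).

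In the time course, a fold of 3 gave 31 genes over day 0, 16 over LFAI and 9 over both on LIM day 4. With members chosen on CGR8 alone these were 106, 73 and 52 of 256 genes (41.4%, 28.5% and 20.3%), and with a pseudocount of 2 there were 16 over both. With the 54 members at a mean of 10 CPM or more in LIM, an alternative chosen after seeing the data, 30 (55.6%) were over day 0 and 16 (29.6%) over both. Leaving out the library labelled LFAI day 1, also chosen after seeing the data, left 50 of 60 genes at 2 times day 0 on any LFAI day. With that library kept, 32 of the 92 (34.8%, beside 86.4% of genes at the level condition) did not reach it. The shares of genes at the level condition at a fold of 3 or a pseudocount of 2 were not computed. Of 857 alternatives on single genes, 762 left the call, 95 ended it and 0 turned the direction. The time course has 1 library a point, so the variation between cultures, which adds to counting error, is unknown, and no library of it could be left out with a test.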
